A study of Mus musculus with 6 samples.

Results

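The calcium release machinery of skeletal muscle was examined in mouse lip through 10 genes: the voltage sensor subunits Cacna1s, Cacnb1 and Cacng1, the release channel Ryr1, the junction proteins Jph1 and Trdn, the store proteins Casq1 and Casq2, and the reuptake pumps Atp2a1 and Atp2a2. The genes were chosen by name for their known place in excitation-contraction coupling, and they are 10 of the 26814 genes counted. Earlier results of these data were known at that choice, and the study lists Cacng1 among its most significant down-regulated genes. Expression is given in CPM, a gene's counts scaled to the size of its library. All 10 reached 1 CPM in 3 or more libraries, the filter for testing, as did 15009 genes in all. RNA was sequenced from the dissected top lip of adult female mice, with 3 libraries labelled KO (the targeted allele Gtf2ird1 tm1Hrd) and 3 labelled WT (wild type), all on a C57BL/6J background and each library from 1 mouse. The mutation is carried by the whole animal and not by muscle alone, and the lip was homogenised whole, so that its muscle was measured together with skin and connective tissue.

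In a skeletal muscle fibre, an action potential runs down the T-tubule and moves the voltage sensor, an L-type calcium channel, which is coupled to the ryanodine receptor in the facing membrane of the sarcoplasmic reticulum. The receptor opens, calcium bound to calsequestrin in the store is released onto the myofilaments, and the fibre contracts. A calcium pump of the SERCA family then returns the calcium to the store and the fibre relaxes. Fast fibres use mainly the pump encoded by Atp2a1 and the calsequestrin encoded by Casq1, while Atp2a2 and Casq2 encode the forms of slow and cardiac muscle, and a splice form of Atp2a2 serves as the pump of most other cells.

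Total counts ran from 20164081 to 29491767 per library. Counts of Gtf2ird1 itself were higher in the libraries labelled KO. Its level was 78.2, 70.2 and 70.7 CPM in the WT libraries and 166, 162 and 144 CPM in the libraries labelled KO, a log2 fold change of 1.11 (SE 0.13, adjusted p = 0.0018, edgeR quasi-likelihood test). The study took tail biopsies to check the genotypes, and it cites work in which the protein regulates its own gene. The reason for the higher counts was not tested. A count per gene does not show which exons the reads came from, so every direction below is that of the libraries labelled KO. The third library labelled KO stood nearer to WT than the other two did: across tested genes its log2 CPM correlated with the WT libraries at 0.948 to 0.955, against 0.907 to 0.933 for the other two, and values without it are given where they matter. The 25 contractile and metabolic muscle genes used as a reference summed to 15537 to 19815 CPM in WT and 7747 to 12122 CPM in the libraries labelled KO. The sum of the suprabasal keratinocyte markers moved the other way, at 17222 to 21952 CPM in WT and 28307 to 43054 CPM in the libraries labelled KO. Krt1 and Krt10 made up most of it. Krt1, Krt10 and Ivl were higher in each library labelled KO, Flg overlapped, and Lor overlapped with a log2 fold change of -0.32. Over all tested genes, 13.5% were higher in each library labelled KO than in any WT library, and 18.1% were lower. Fibroblast markers summed to 6530 to 8463 and 2835 to 6790 CPM, with overlap. Their log2 fold changes ran from -0.85 for Col1a1 to -0.23 for Pdgfra, and only Dpt was separated. Basal keratinocyte markers overlapped between the groups in their sum, at 10268 to 11182 and 9634 to 11475 CPM. By gene, Krt15 and Col17a1 were lower and Itga6 was higher in each library labelled KO than in any WT library. Krt5 and Krt14 overlapped. Smooth muscle markers summed to 254 to 297 CPM in WT and 173 to 232 CPM in the libraries labelled KO. Tagln and Acta2 were lower in each library labelled KO than in any WT library, and the others overlapped. Only 1 of the 5, Tagln, was called lower (log2 fold change -0.59, adjusted p = 0.0437, edgeR quasi-likelihood test), beside 2.09% of tested genes. That call was lost, with adjusted p up to 0.221, when any 1 library but the third labelled KO was left out. The part of these markers in the results below was not tested, and in bulk tissue fewer muscle fibres and less RNA per fibre cannot be told apart.

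For 7 of the 10 genes the level was lower in each library labelled KO than in any WT library, a separation that 18.1% of all tested genes showed in that direction. These were Cacna1s, Cacnb1, Cacng1, Ryr1, Jph1, Casq1 and Atp2a1. Atp2a2 was higher in each library labelled KO than in any WT library, as were 13.5% of tested genes, while Trdn and Casq2 overlapped. Only Cacng1 fell past an adjusted p of 0.05 in the edgeR quasi-likelihood test, against a background of 2.09% of tested genes called lower, and the median log2 fold change of the 10 was -0.95 beside -0.02 over all tested genes. No member was called higher by this test, by the exact test or by DESeq2, beside 4.38%, 7.76% and 9.5% of tested genes called higher by the 3 tests. At an unadjusted p under 0.05 none was higher in this test or the exact test. In DESeq2 1 was, Atp2a2, beside 2477 of the 15009 tested genes. The 7 separated genes were all called lower by edgeR's exact test (background 7.15%) and by DESeq2 (background 7.61%). They were also all called by the quasi-likelihood test without the third library labelled KO, where 16.2% of tested genes were called lower. The count of calls thus depended on the test and on that library.

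**Figure D1:**
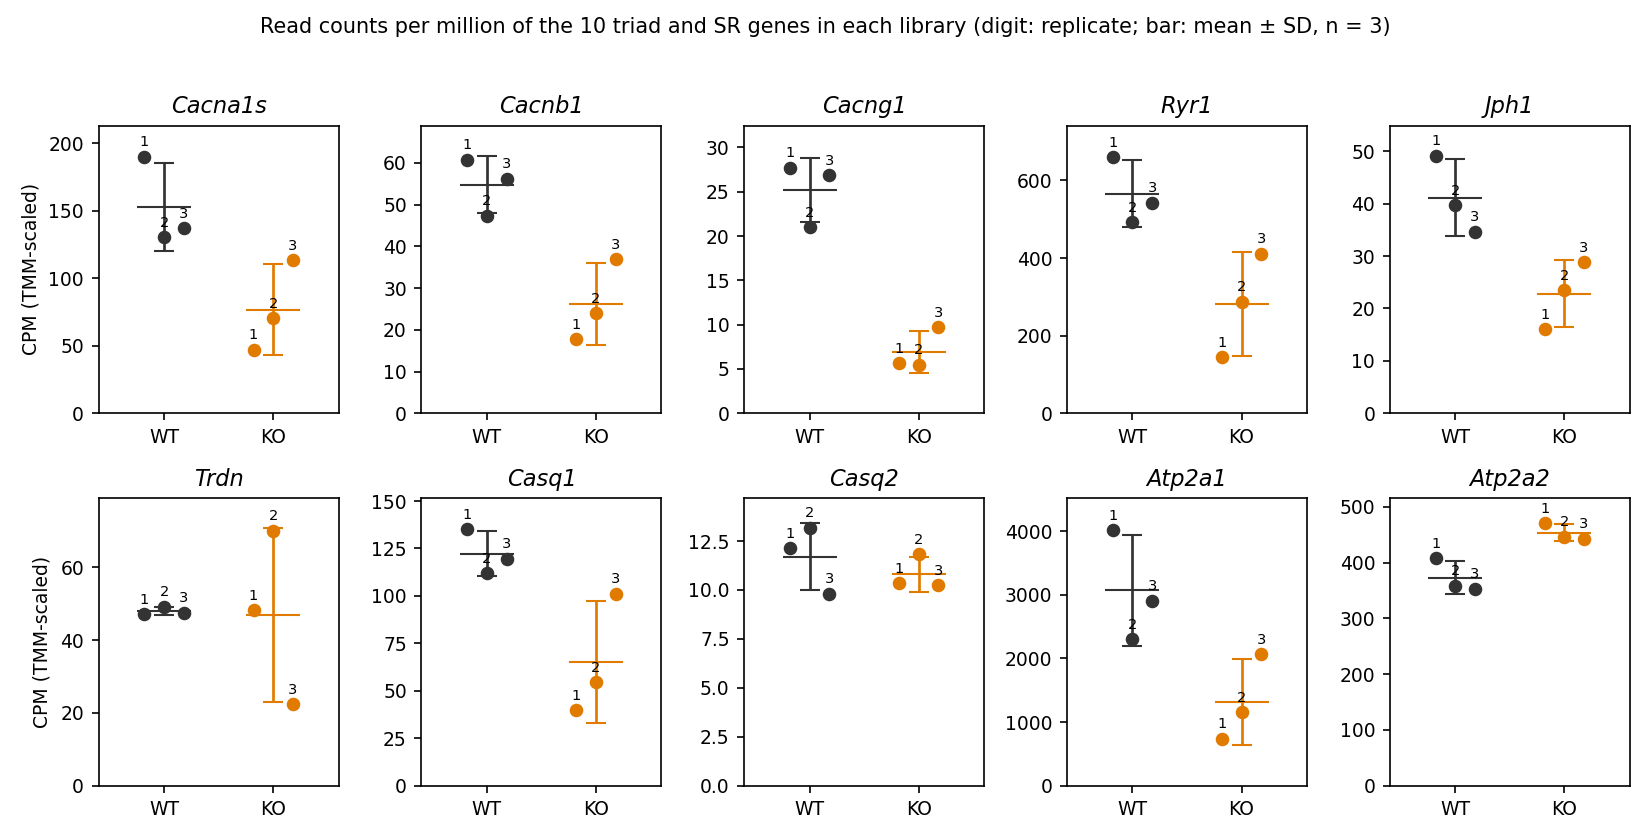
Level of each of the 10 genes in CPM on a linear axis from 0, with each point 1 library (replicate number beside it), WT and libraries labelled KO side by side, and bars for mean ± SD (n = 3). Cacng1 is lowest relative to its WT level, Atp2a2 is the one gene with all 3 libraries labelled KO above WT, and the third library labelled KO sits nearest to WT in the 7 genes that are lower.

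Cacng1 encodes the gamma subunit of the skeletal muscle L-type channel and lies on chromosome 11 at 107703218 to 107716522 (GRCm38, minus strand), with no annotated gene overlapping it. Its level was 27.7, 21.0 and 26.8 CPM in the WT libraries and 5.63, 5.46 and 9.69 CPM in the libraries labelled KO. The groups stood far apart, with even the highest library labelled KO below the lowest WT library. Cacng1 fell by 72.5%, from 25.2 ± 3.66 to 6.93 ± 2.40 CPM (SD, n = 3), a log2 fold change of -1.86 (SE 0.26, adjusted p = 0.00454, edgeR quasi-likelihood test). It was called lower with each of the 6 libraries left out in turn, with log2 fold changes from -2.18 to -1.66 and adjusted p from 0.00014 to 0.0402 in the same edgeR test.

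Cacna1s encodes the pore and voltage sensor itself, and lies on chromosome 1 at 136052750 to 136119822 (plus strand). Its level was 190, 130 and 137 CPM in WT and 47.0, 70.2 and 113 CPM in the libraries labelled KO. The groups did not overlap, but the third library labelled KO came close to the lowest WT library. The log2 fold change was -0.99 (SE 0.31, adjusted p = 0.0877, edgeR quasi-likelihood test), and -1.37 without that library (adjusted p = 0.00274, same test). Cacnb1 encodes the beta subunit, which helps bring the channel to the membrane, and lies on chromosome 11 at 98001508 to 98023034 (minus strand). Its level was 60.8, 47.4 and 56.3 CPM in WT and 17.8, 24.0 and 37.0 CPM in the libraries labelled KO. An edgeR log2 fold change of -1.06 (SE 0.26) had an adjusted p of 0.0505 in the edgeR quasi-likelihood test and of 0.042 in limma-voom (2.21% of tested genes called lower), so that it stood at the threshold.

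Within the channel, the gamma subunit was lower relative to the pore. The log2 ratio of Cacng1 to Cacna1s was -2.58 ± 0.21 in WT and -3.41 ± 0.33 in the libraries labelled KO (SD, n = 3), a difference of -0.83. The libraries labelled KO all lay below the WT libraries in this ratio (two-sided exact permutation test, p = 0.1, the least that 3 libraries against 3 can give). Without the third library labelled KO the difference was -0.77, so here that library did not set the size. Per kb of exon, on which levels of different genes can be set beside each other, Cacng1 stood at 20.2 ± 2.93 and Cacna1s at 23.3 ± 4.97 CPM per kb in WT, a difference smaller than the SD of Cacna1s though not than that of Cacng1. In the libraries labelled KO they stood at 5.55 ± 1.92 and 11.7 ± 5.13 CPM per kb.

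Ryr1, which encodes the calcium release channel, lies on chromosome 7 at 29003344 to 29125179 (minus strand). Its level was 661, 493 and 542 CPM in WT and 144, 287 and 411 CPM in the libraries labelled KO. These 3 libraries were spread more widely than the WT libraries, and all lay below them. The log2 fold change was -1.01 (SE 0.34, adjusted p = 0.101, edgeR quasi-likelihood test), and -1.39 without the third library labelled KO (adjusted p = 0.00641, same test).

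The junction genes Jph1 and Trdn differed from each other. Jph1 encodes junctophilin, which tethers the T-tubule to the sarcoplasmic reticulum, and lies on chromosome 1 at 16964560 to 17097889 (minus strand). Its level was 49.2, 39.7 and 34.7 CPM in WT and 16.1, 23.4 and 28.9 CPM in the libraries labelled KO, a log2 fold change of -0.85 (SE 0.23, adjusted p = 0.0687, edgeR quasi-likelihood test). Trdn encodes triadin, which anchors calsequestrin at the release channel, and spans 396156 bases of chromosome 10 at 33080554 to 33476709 (plus strand). Its level was 47.1, 49.1 and 47.5 CPM in WT and 48.3, 70.0 and 22.4 CPM in the libraries labelled KO. The WT libraries were nearly equal, and the libraries labelled KO lay on both sides of WT, with the library that was highest for the 7 separated genes now lowest. The log2 fold change was -0.03 (SE 0.34, adjusted p = 0.96, edgeR quasi-likelihood test), and with 1 library left out in turn it ran from -0.38 to 0.31.

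The store genes Casq1 and Casq2 are shown with the sequence before their starts, since they encode 2 calsequestrins and had different values here. The windows are the 250 bases upstream of the RefSeq start on GRCm38.p6, read 5′ to 3′ on the gene's strand. The Casq1 window is chr1:172219896-172220145 (minus strand) and the Casq2 window is chr3:102086165-102086414 (plus strand). Capitals mark matches to CANNTG, the E-box letters, and to the MEF2 motif, both motifs being searched on both strands.
Casq1: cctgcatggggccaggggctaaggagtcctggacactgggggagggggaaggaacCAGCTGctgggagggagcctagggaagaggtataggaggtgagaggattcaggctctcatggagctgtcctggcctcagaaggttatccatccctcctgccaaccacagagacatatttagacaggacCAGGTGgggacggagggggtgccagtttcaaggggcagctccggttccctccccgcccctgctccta
Casq2: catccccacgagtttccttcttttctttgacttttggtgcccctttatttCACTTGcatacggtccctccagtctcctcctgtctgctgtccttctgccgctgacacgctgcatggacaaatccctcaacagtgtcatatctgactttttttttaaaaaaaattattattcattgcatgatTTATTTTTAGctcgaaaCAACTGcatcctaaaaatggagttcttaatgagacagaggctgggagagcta
The Casq1 window holds CANNTG at 195 and 67 bases before the start, the first of them reading CAGCTG, and the Casq2 window holds CANNTG at 200 and 52 bases and a MEF2 match at 69 bases. Of 32851 windows of this length, 66.2% hold CANNTG, 13% hold CAGCTG and 2.92% hold the MEF2 motif. Windows were matched for 6 of the 10 genes (Atp2a1, Cacna1s, Cacnb1, Casq1, Casq2 and Ryr1), with 2 windows for Cacnb1, and 5 of these 7 windows hold CANNTG. A match describes letters in the window and says nothing of binding.

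Casq1 lies on chromosome 1 at 172209894 to 172219868 (minus strand). Its level was 135, 112 and 120 CPM in WT and 39.8, 54.6 and 101 CPM in the libraries labelled KO. The third library labelled KO was just under the lowest WT library and the other two were far below. The log2 fold change was -0.91 (SE 0.31, adjusted p = 0.103, edgeR quasi-likelihood test), and -1.37 without that library (adjusted p = 0.00112, same test). Casq2 lies on chromosome 3 at 102086415 to 102146514 (plus strand), and its level was 12.1, 13.2 and 9.80 CPM in WT and 10.3, 11.8 and 10.2 CPM in the libraries labelled KO. The 2 groups overlapped, and the log2 fold change was -0.11 (SE 0.17, adjusted p = 0.682, edgeR quasi-likelihood test). The log2 ratio of Casq1 to Casq2 was 3.38 ± 0.27 in WT and 2.48 ± 0.72 in the libraries labelled KO (SD, n = 3), with overlap (two-sided exact permutation test, p = 0.2).

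The pumps had opposite signs. Atp2a1 encodes SERCA1, the pump of fast fibres, and lies on chromosome 7 at 126445858 to 126463108 (minus strand). Its level was 4015, 2297 and 2906 CPM in WT and 739, 1154 and 2061 CPM in the libraries labelled KO, a log2 fold change of -1.22 (SE 0.38, adjusted p = 0.0892, edgeR quasi-likelihood test). Atp2a2 encodes SERCA2, the pump of slow and cardiac muscle and of most other cells, and lies on chromosome 5 at 122453513 to 122502225 (minus strand). Its level was 408, 358 and 354 CPM in WT and 471, 447 and 443 CPM in the libraries labelled KO, which lay close together and all above WT. This was a log2 fold change of 0.28 (SE 0.13, adjusted p = 0.189, edgeR quasi-likelihood test), and it ran from 0.24 to 0.35 with 1 library left out in turn. The log2 ratio of Atp2a1 to Atp2a2 was 3.01 ± 0.31 in WT and 1.41 ± 0.79 in the libraries labelled KO (SD, n = 3), without overlap. That difference of -1.59 (two-sided exact permutation test, p = 0.1, the least possible) became -1.996 without the third library labelled KO.

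The markers of slow and cardiac muscle, where Casq2 and Atp2a2 are best known, had low counts or counts near 0. As a whole the 6 slow markers summed to 9.48 to 12.01 CPM in WT and 4.04 to 7.09 CPM in the libraries labelled KO, and the 6 cardiac markers to 6.84 to 8.33 and 9.10 to 19.6 CPM. The slow myosin gene Myh7 had 0 or 1 count in each library, Myl2 0 or 1, Myl3 0 to 3 and Tnnc1 0 to 8. The slow troponin genes Tnnt1 (42 to 227 counts) and Tnni1 (26 to 73 counts) were detected in each library, and Tnnt1 had a log2 fold change of -1.20 (SE 0.30, adjusted p = 0.0543, edgeR quasi-likelihood test). The cardiac genes Nppa, Myl7 and Myh6 had 0 or 1, 2 to 10 and 3 to 13 counts. Tnnt2 had 72 to 162 counts and Tnni3 22 to 50, and both overlapped between the groups. Nppb, which encodes a natriuretic peptide, was the exception among the 3 cardiac markers tested: it rose from 1.73 ± 0.43 to 7.85 ± 3.29 CPM (SD, n = 3), a log2 fold change of 2.18 (SE 0.36, adjusted p = 0.0124, edgeR quasi-likelihood test). Without the second library labelled KO or without any 1 WT library it was no longer called, with an adjusted p of at most 0.0651. The fast muscle genes of the reference summed to 6910 to 7832 CPM in WT and 3193 to 5709 CPM in the libraries labelled KO. Yet the fast troponin gene Tnnc2 among them had only 0 to 5 counts. A count near 0 alone thus does not show that a muscle gene was silent here. Exons of Tnnc2 share bases with Ube2c, those of Myl2 with Ccdc63 and those of Myl3 with Pth1r. Those of Myh7 share bases with Mhrt, Gm29015 and Gm31251, those of Myh6 with Gm49130 and those of Nppa with Gm13054. The part of this overlap in the counts was not tested.

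Per kb of exon the order of the 10 genes in WT was led by Atp2a1 at 884 ± 251 CPM per kb (SD, n = 3). Casq1 at 62.7 ± 6.09 and Atp2a2 at 61.4 ± 4.96 CPM per kb followed and did not differ beyond their spread. Ryr1 at 25.9 ± 3.94 CPM per kb came next and differed from Cacna1s by less than their SDs. Cacnb1 stood at 12.1 ± 1.5, Jph1 at 8.24 ± 1.47, Trdn at 5.12 ± 0.12 and Casq2 at 4.28 ± 0.63 CPM per kb. In the libraries labelled KO Atp2a1 still led at 379 ± 194 CPM per kb, with Atp2a2 at 74.6 ± 2.54 now ahead of Casq1 at 33.4 ± 16.4. At the lower end Cacnb1 at 5.80 ± 2.17, Cacng1 at 5.55 ± 1.92, Trdn at 5.01 ± 2.55, Jph1 at 4.56 ± 1.28 and Casq2 at 3.95 ± 0.33 CPM per kb each differed from the next in this order by less than the larger of their SDs. Fixed exon lengths were used, so that a shift between splice forms is not seen in these levels.

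The 7 separated genes also ordered the libraries alike within each group. The first WT library was the highest WT library for 7 of 7, the third library labelled KO was the highest of its group for 7 of 7, and the first was the lowest of its group for 6 of 7, with Cacng1 the exception. Pairwise Pearson r among these 7 genes was at least 0.876 over the 6 libraries, and r of Atp2a2 with them ran from -0.852 to -0.695. These correlations share the difference between the groups and are descriptions over 6 libraries. With the mean log2 CPM of the 20 tested muscle reference genes, r was 0.943 for Ryr1 to 0.99 for Cacnb1 among the 7, and 0.25 for Casq2, -0.164 for Trdn and -0.78 for Atp2a2.

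That muscle reference was itself lower, at a mean log2 CPM of 8.17 ± 0.18 in WT and 7.25 ± 0.35 in the libraries labelled KO (SD, n = 3; difference -0.92, two-sided exact permutation test, p = 0.1, the least possible). Each of the 10 genes was therefore also expressed relative to the reference in its own library. Relative to it, Cacna1s, Cacnb1, Ryr1, Jph1, Casq1 and Atp2a1 overlapped between the groups, with differences from -0.38 for Atp2a1 to 0.05 for Jph1 on the log2 scale. Cacng1 remained lower in all 3 libraries labelled KO, by -0.97 (two-sided exact permutation test, p = 0.1, adjusted over the 10 genes p = 0.333). Casq2 was higher by 0.82 and Atp2a2 by 1.21 in all 3, each with the same exact p and adjusted p. The reference itself was lower by 0.92, so a gene that did not fall with it comes out higher by this measure. In CPM, Casq2 and Atp2a2 had log2 fold changes of -0.11 and 0.28. No rise within muscle can be read from their ratios. Trdn was higher in the first and second library labelled KO and lower in the other, a difference of 0.75 (two-sided exact permutation test, p = 0.4), which became 1.40 without that other library. With 3 libraries a group no gene could pass an adjusted threshold of 0.05 here, so these are separations without a call. With the fast-fibre genes alone as the reference, an alternative added after the data were seen, the differences were -1.002 for Cacng1, 0.78 for Casq2 and 1.17 for Atp2a2. The same limit holds there, since the fast-fibre genes were lower too.

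**Figure D2:**
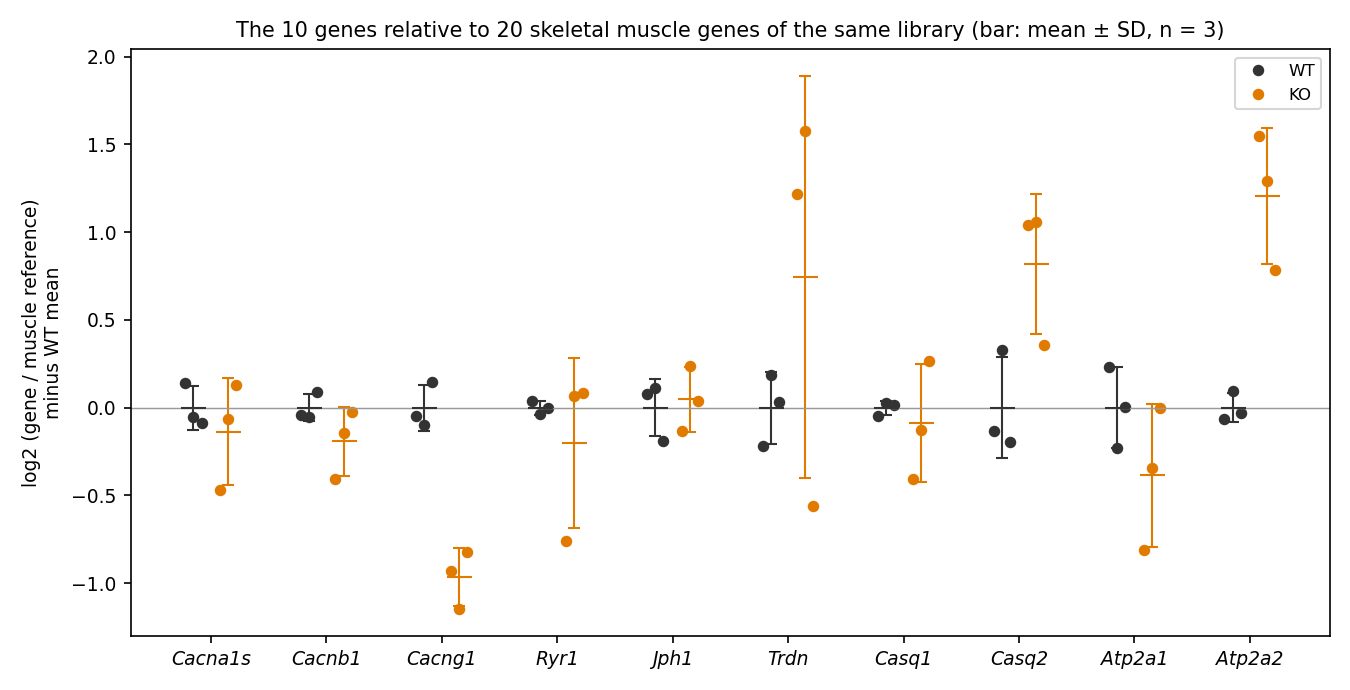
Log2 level of each gene relative to the mean of 20 skeletal muscle genes of the same library, with the WT mean of each gene set to 0, points for libraries and bars for mean ± SD (n = 3). Cacng1 lies below WT and Casq2 and Atp2a2 above WT in all 3 libraries labelled KO, Trdn lies on both sides, and the other 6 genes overlap. The reference itself is lower in the libraries labelled KO, so a gene steady in CPM lies above WT here.

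The wider pathway was described through 28 other genes of the triad, the sarcoplasmic reticulum and store refilling. In the edgeR quasi-likelihood test 3 of the 28 were called lower and 2 higher, beside backgrounds of 2.09% and 4.38% of tested genes. Their median log2 fold change was -0.88, and 22 of 28 values were negative, as were 7801 of the 15009 over all tested genes. In 15 of the 28 the libraries labelled KO lay wholly below WT and in 2 wholly above, beside 18.1% and 13.5% of tested genes. Ryr3, 1 of the 2 higher genes in both counts, passed the filter only through the libraries labelled KO, so its separation was fixed in advance. The exact test called 14 of them lower (background 7.15%) and DESeq2 14 (background 7.61%), and 17 were called lower by the quasi-likelihood test without the third library labelled KO (background 16.2%).

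The 3 genes that fell encode calcium-binding or membrane proteins of the fibre. Pvalb encodes parvalbumin, the soluble calcium buffer of fast fibres, and its level was 226, 152 and 204 CPM in WT and 69.1, 70.2 and 119 CPM in the libraries labelled KO. It fell by 1.17 on the log2 scale (SE 0.25, adjusted p = 0.0343, edgeR quasi-likelihood test). S100a1 encodes a calcium-binding regulator of the release channel, and its level was 85.4, 57.8 and 90.4 CPM in WT and 34.6, 35.5 and 51.7 CPM in the libraries labelled KO. It fell by 0.94 (SE 0.22, adjusted p = 0.0484, same edgeR test). Dysf encodes dysferlin, which serves membrane repair and the T-tubule, and its level was 31.0, 24.9 and 27.0 CPM in WT and 11.8, 14.3 and 19.3 CPM in the libraries labelled KO. It fell by 0.87 (SE 0.20, adjusted p = 0.0462, same edgeR test). All 3 kept separated groups, but leaving out 1 library other than the third labelled KO ended the call for Pvalb and Dysf, with adjusted p up to 0.175 and 0.222. S100a1 was called without the second WT library or the third labelled KO, and its adjusted p otherwise reached 0.226 in the edgeR test. S100a1 and Dysf stood at the threshold, and both lost the call with DESeq2's size factors in the same edgeR test (adjusted p = 0.0543 and 0.0525).

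The 2 genes that rose are a second release channel and a store entry channel. Ryr3 encodes a ryanodine receptor that mature skeletal muscle holds at low levels, and its level was 0.617, 0.723 and 0.495 CPM in WT and 7.37, 6.02 and 3.75 CPM in the libraries labelled KO. It rose by 3.21 on the log2 scale (SE 0.33, adjusted p = 0.00102, edgeR quasi-likelihood test). It reached the filter of 1 CPM in 3 libraries only through the libraries labelled KO, so that a gene so admitted had to differ, and its call adds nothing to the count. When each library was instead required to hold 10 counts, which Ryr3 met in both groups (11 to 17 in WT), its log2 fold change was 3.21 (adjusted p = 0.00153, edgeR). Without any 1 of the libraries labelled KO it failed the 1 CPM filter and was not tested. Refits without a WT library rest on the same filter, so they add nothing. Per kb of exon Ryr3 stood at 0.301 ± 0.096 CPM per kb in the libraries labelled KO, beside 12.9 ± 6.13 CPM per kb for Ryr1 (SD, n = 3). The log2 ratio of Ryr3 to Ryr1 was higher by 4.15, in a comparison added after the data were seen. It is a description only, since the filter fixed the separation of Ryr3. Orai1 encodes the pore of store-operated calcium entry in many cell types, and its level was 32.3, 22.6 and 30.7 CPM in WT and 49.4, 50.7 and 62.1 CPM in the libraries labelled KO. It rose by 0.92 (SE 0.18, adjusted p = 0.0238, edgeR quasi-likelihood test), and its adjusted p ran from 0.00749 to 0.0804 with 1 library left out in turn, with the call lost without the first or the third WT library or the second labelled KO. Its sensor Stim1 had the opposite sign, with a log2 fold change of -0.64 (SE 0.22, adjusted p = 0.106, same edgeR test).

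The other 23 genes of the pathway did not pass the test, and their log2 fold changes ran from -1.52 for Sln to 0.42 for Mtm1. Around the voltage sensor, Stac3, an adaptor needed for coupling, had a log2 fold change of -0.97 (adjusted p = 0.0703, edgeR), and Cacna2d1, the auxiliary alpha2-delta subunit, had -0.48 (adjusted p = 0.131). At the junction, Jsrp1, Sypl2, Cav3, Jph2, Tmem38a, Trim72 and Bin1 had log2 fold changes from -1.28 to -0.96 (adjusted p 0.0614 to 0.12, edgeR). Asph, whose locus also encodes junctin, had -0.27 (adjusted p = 0.169) and Mtm1, a lipid phosphatase of the T-tubule, had 0.42 (adjusted p = 0.373). Sln, which encodes the SERCA inhibitor sarcolipin, had the lowest value of the pathway at -1.52 (SE 0.44, adjusted p = 0.0757, edgeR), with overlapping groups. Pln, which encodes the SERCA inhibitor phospholamban, had -0.92 (adjusted p = 0.09, edgeR) at only 2.05 ± 0.24 CPM in WT (SD, n = 3). The store proteins calumenin and calreticulin, which non-muscle cells also make, had log2 fold changes of 0.07 for Calu and 0.09 for Calr.

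**Figure D3:**
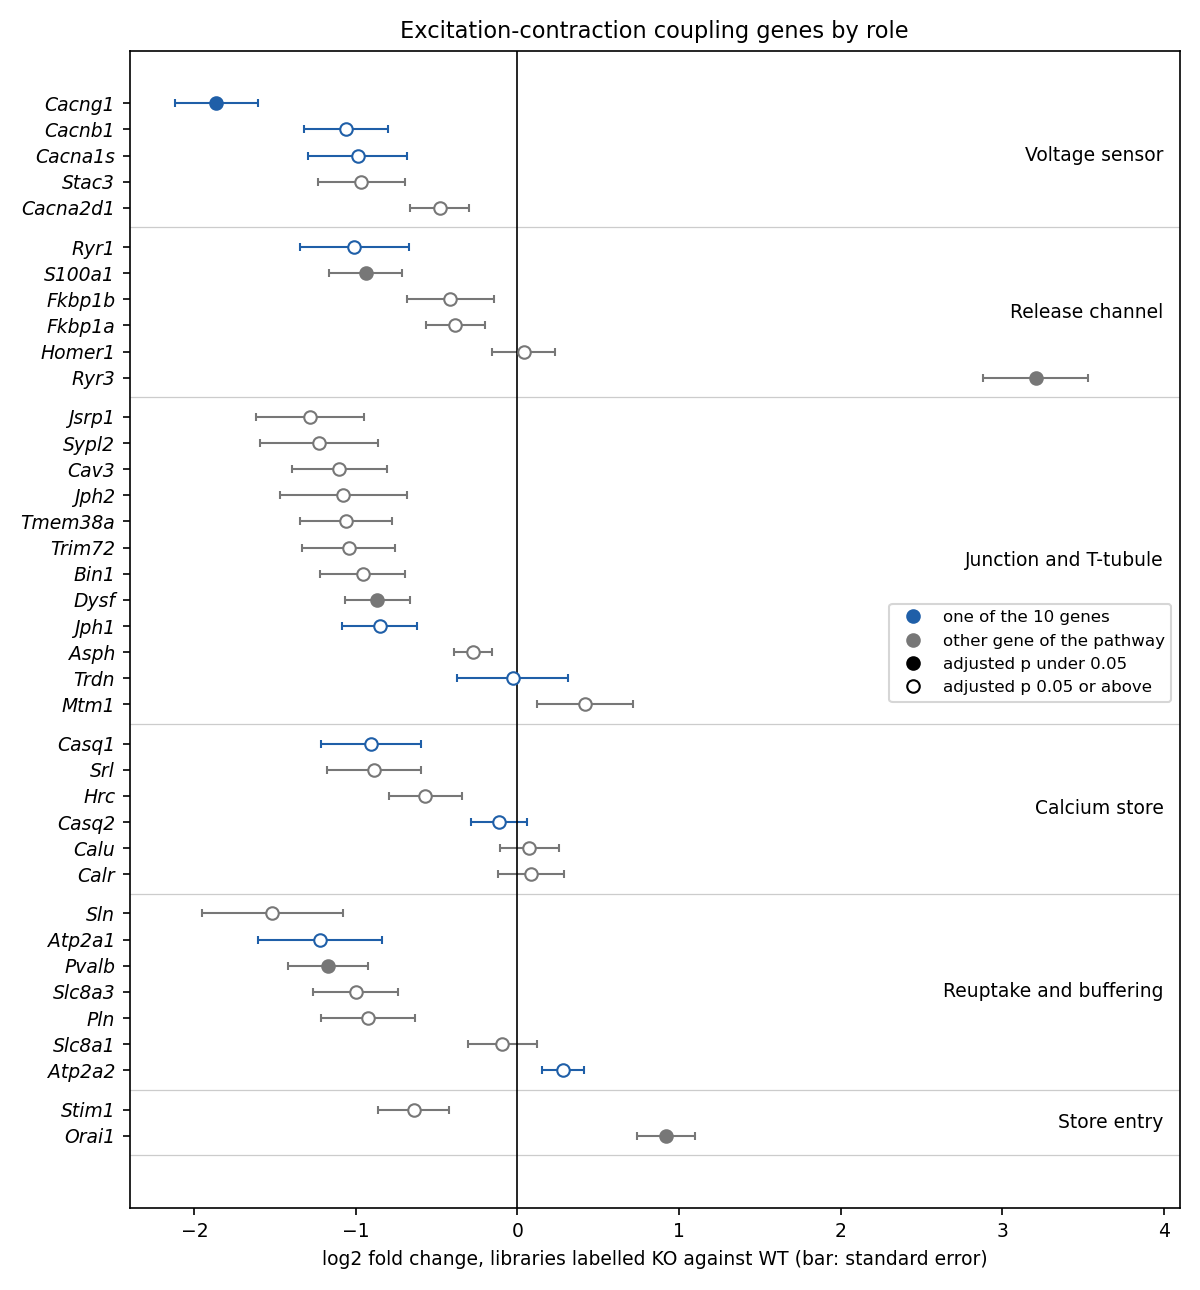
Log2 fold change of the libraries labelled KO against WT, with its standard error, for the 10 genes (blue) and 28 other genes of the pathway (grey) ordered by role, filled where the adjusted p of the edgeR quasi-likelihood test was under 0.05. Most values lie below 0 (22 of the 28 and 9 of the 10), and the filled points are Cacng1, S100a1, Dysf and Pvalb below 0 and Ryr3 and Orai1 above 0. Ryr3 passed the filter for testing only through the libraries labelled KO.

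The muscle reference gives the scale for these values. Of its 25 genes 20 were tested, all 20 had negative log2 fold changes, from -1.29 for Acta1 to -0.32 for Tnni1, and their median was -0.94, beside -0.95 for the 10 calcium genes. In 17 of the 20 the libraries labelled KO lay wholly below WT (18.1% of tested genes). Only 2 were called lower by the edgeR quasi-likelihood test, beside 2.09% of tested genes, the fast troponin genes Tnnt3 (log2 fold change -1.01, adjusted p = 0.0397) and Tnni2 (-1.05, adjusted p = 0.0484), and neither was called when 1 library other than the third labelled KO was left out. The log2 fold change of Cacng1, -1.86, lay below that of every tested reference gene. Among the other pathway genes, that of Sln, -1.52, did so too.

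**Figure D4:**
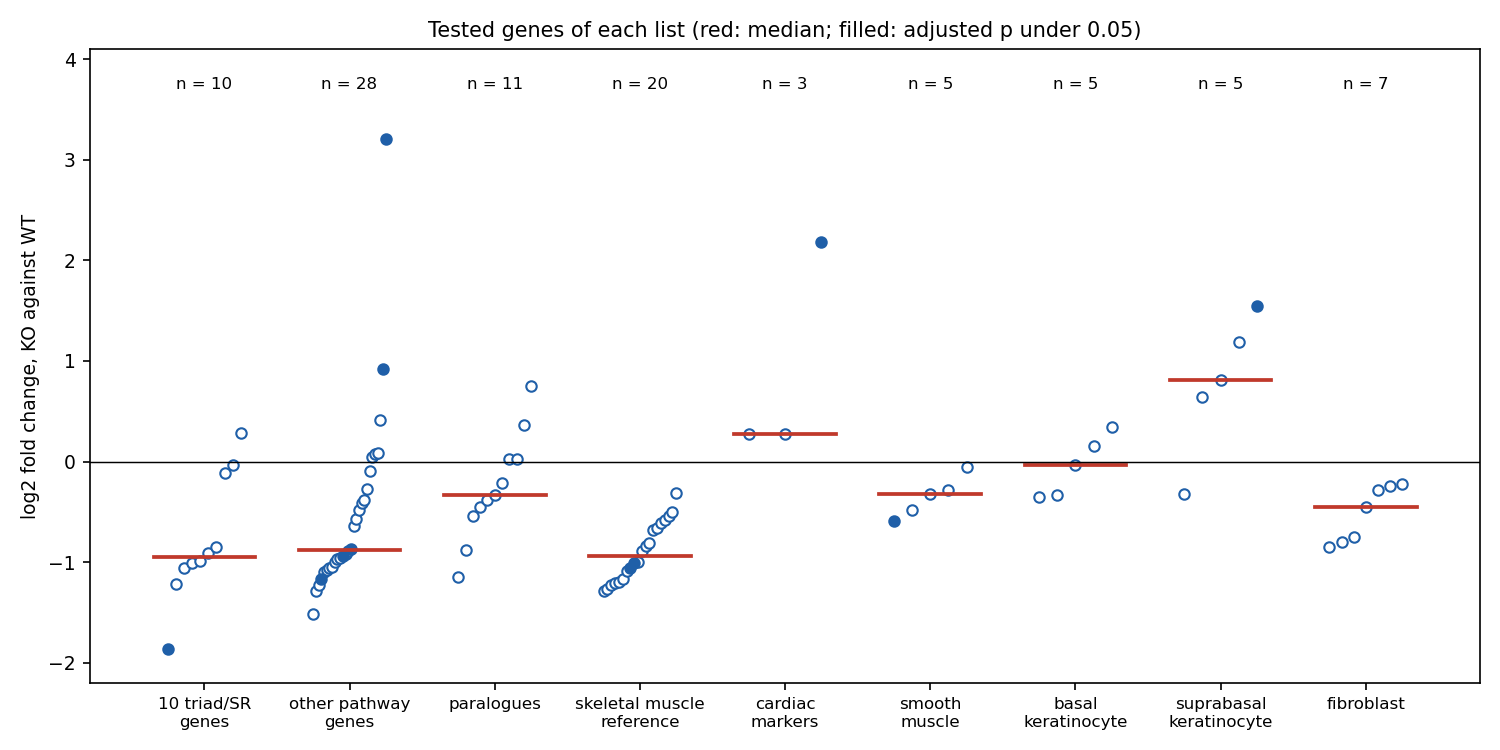
Log2 fold change of every tested gene of each list, with red bars for medians and filled points for an adjusted p under 0.05 (edgeR quasi-likelihood test). The 10 calcium genes, the other pathway genes and the muscle reference have medians of -0.95, -0.88 and -0.94. Cacng1 and Sln lie below the range of the reference. Ryr3 lies farthest above it, and Atp2a2, Trdn, Casq2, Orai1 and further pathway genes also lie above it.

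Exons of Cacna1s, Cacnb1, Ryr1, Jph1, Casq1, Atp2a1 and Atp2a2 share bases with annotated genes on the opposite strand, Rabep2 for Atp2a1, and the strand setting of the counting is not given in the sources used here, so reads of such partners cannot be told apart. Rabep2 itself had a log2 fold change of -0.02. Exons of Ryr3 overlap Aven and those of Orai1 overlap Gm2479 in the same way. So do those of Dysf with Gm15475 and Gm33024, of Gtf2ird1 with Gm42882 and of Tagln with Gm48529 and Pcsk7. Cacng1, Trdn and Casq2 have no such overlap of exons.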

How the data were processed

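RNA-seq counts per gene were deposited as 1 matrix of 26814 genes and 6 libraries, 3 labelled KO and 3 WT, with every column used (0 unused). The authors mapped reads to GRCm38 with TopHat2 (version 2.0.8, calling Bowtie2 2.1.0) and counted uniquely mapped reads with HTSeq-count, and the deposited counts are not normalized. The overlap mode and strand setting are not given in the sources used here. Total counts were 20164081 to 29491767, and their number limits the precision of genes of a few CPM.

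The 10 genes, the lists and the tests were chosen with earlier results of these data known. The 15009 genes that reached 1 CPM in 3 or more libraries were analysed with edgeR 4.0.16 in R 4.3.3, using TMM factors, glmQLFit, glmQLFTest and Benjamini-Hochberg adjustment over all of them at 0.05. The study used edgeR's exact test, which was run here as an alternative along with DESeq2 1.42.0 and limma-voom (limma 3.58.1), other scalings and filters, a replicate block, each library left out in turn, a threshold of 0.1 and removal of a trend on genomic span, the last 2 added after the data were seen. CPM values are on TMM-scaled library sizes, and log2 CPM used a prior count of 2. Ratios were tested by two-sided exact permutation over the 20 assignments of 6 libraries. The steps were checked on simulated data. Named genes were Gtf2ird1, the 10 genes, genes of the fixed lists past the threshold or at a list's ends, and the 10 genes most like the 10 in pattern. Other list genes given by value, and Rabep2, were chosen after their values were seen. Positions and exon lengths came from GENCODE vM21 on GRCm38, where 92.5% of symbols matched once, and promoter windows from RefSeq on GRCm38.p6. Each library was 1 mouse by the study's methods. Figures used Python 3.11.15 and matplotlib 3.10.9.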

Additional observations from a re-analysis of the deposited data

How the results depend on the processing

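The 3 libraries a group limited every call. Cacng1 was called lower under each alternative run and with each library left out. Members called lower (1) became 7 with edgeR's exact test, 7 with DESeq2, 2 with limma-voom, 2 with library size alone, 2 with upper-quartile scaling and 5 at an adjusted p under 0.1, and ran from 1 to 7 with 1 library left out, 7 being without the third library labelled KO. Their median log2 fold change (-0.95) then ran from -1.37 without that library to -0.61 without the first labelled KO. Pathway genes called lower (3) became 14 with the exact test, 14 with DESeq2, 14 at 0.1, and 1 with DESeq2 size factors, 1 with no filter and 1 with at least 10 counts in every library, and ran from 0 to 17 with 1 library left out, again 17 without the third labelled KO. Those called higher (2) ran from 0 to 2, with 0 without the second labelled KO. Paralogues called lower (0) became 2, 1 and 2 with the exact test, DESeq2 and 0.1, and those called higher (0) became 1 in each of these, 1 with no filter and 1 with the span trend removed. With 1 library left out they ran from 0 to 3 and from 0 to 1. Muscle reference genes called lower (2) became 14, 14 and 14 with the exact test, DESeq2 and 0.1, 5 with limma-voom, 5 with upper-quartile scaling, 1 with DESeq2 size factors and 1 with at least 10 counts in every library, and ran from 0 to 16 with 1 library left out. Over all tested genes, 314 called lower became 1073 with the exact test, 1142 with DESeq2, 1281 at 0.1, 207 with DESeq2 size factors, 204 with no filter and 204 with at least 10 counts in every library, and 657 called higher became 1165, 1426 and 1248 in the first 3 of these. With 1 library left out they ran from 18 to 2395 and from 208 to 2496, the highest being without the third labelled KO. The cause of these shifts was not tested.

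Replicate numbers were shared between the groups, but same-numbered libraries had correlations of deviations of -0.192, 0.293 and 0.312, and the first and second labelled KO both correlated best with the second WT library, so the numbers were not taken as a pairing. With the replicate block 1 member, 217 genes in all lower and 580 in all higher were called, and the calls of Dysf, Tnnt3 and Tnni2 were lost, with adjusted p of 0.0616, 0.0573 and 0.0502 (edgeR). Sln, Tnnt1, Mb and Ttn were then called lower instead, with adjusted p from 0.0422 to 0.047.

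Genes that changed sign were all without a call. Trdn (-0.03) was 0.019 with no filter and 0.076 with the span trend removed, and ran from -0.38 to 0.31 with 1 library left out. Casq2 ran from -0.23 to 0.038 when so refitted, Homer1 from -0.062 to 0.20, Calu from -0.054 to 0.33, Calr from -0.098 to 0.24, Slc8a1 from -0.20 to 0.063 and Itpr3 from -0.021 to 0.13. With upper-quartile scaling Homer1 was -0.021, Cacna1c -0.034 and Itpr3 -0.032, and with the span trend removed Slc8a1 was 0.020 and Itpr3 -0.033. Over the 80 named genes and the settings other than a left-out library, 683 values kept direction and side of the threshold, 97 gained a call, 13 lost one and 7 changed sign.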

Other observations

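Of 13 paralogues and other calcium release channels, 11 were tested and none was called in either direction by the edgeR quasi-likelihood test, while 5 were lower and 1 higher at an unadjusted p under 0.05, beside 2408 and 2031 of all 15009 tested genes. The exact test called 2 lower and 1 higher (7.15% and 7.76% of tested genes), DESeq2 1 and 1 (7.61% and 9.5%), and limma-voom 0 and 0. Their median log2 fold change was -0.33. The lowest was Cacng6, which encodes another gamma subunit found in muscle, at 15.8, 8.76 and 12.9 CPM in WT and 3.89, 4.80 and 8.19 CPM in the libraries labelled KO, a log2 fold change of -1.15 (SE 0.32, adjusted p = 0.0723, edgeR). The highest was Itpr2, an IP3 receptor found in many non-muscle cells, at 40.3, 52.0 and 52.8 CPM in WT and 105, 72.5 and 65.8 CPM in the libraries labelled KO, a log2 fold change of 0.75 (SE 0.21, adjusted p = 0.07, edgeR). Its groups did not overlap.

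The 10 genes whose log2 CPM followed the mean standardized pattern of the calcium genes most closely had Pearson r of 0.992 to 0.998 over the 6 libraries. They were Fcgbp, 2510009E07Rik, Rai1, Zfp652, Flnc, Pitpnc1, Gm572, Amot, Herc3 and Xirp1. Flnc and Xirp1 encode proteins of the muscle Z-disc and attachment sites, with log2 fold changes of -1.35 (adjusted p = 0.0543, edgeR) and -1.32 (adjusted p = 0.0659, edgeR). The log2 fold changes of the others ran from -1.19 for Gm572 to -0.20 for Zfp652. None of the 10 passed the test at 0.05. Their r is a description over 6 libraries that share the difference between the groups.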
